A study of Rattus norvegicus with 48 samples.

Results

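The let-7 family was taken as every miRNA of the deposited table whose name starts with rno-let-7. That gave 7 members of the 143 miRNAs the table holds for rat liver: rno-let-7a, rno-let-7b, rno-let-7c, rno-let-7d, rno-let-7e, rno-let-7f and rno-let-7i. A further rat member, let-7g, is not in the deposited table and could not be examined. The 48 livers came from male Sprague-Dawley rats in 16 groups of 3, fed a carbohydrate control diet (CHO) or an ethanol diet (EtOH). Livers of untreated animals were collected at 0, 6, 24 or 72 h from the surgical removal of 70% of the liver (partial hepatectomy, PHx), after which the remnant grows back. Further animals of both diets were given saline or AM21, a locked nucleic acid oligo antisense to miR-21, and were collected at 0 and 24 h. Whole liver RNA was measured, so that fewer cells of a type and less RNA per cell cannot be told apart in any value given here.

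A miRNA guides a silencing complex to messenger RNAs mainly through its seed, the bases 2 to 8 from its 5′ end. Members of the let-7 family share their seed and therefore a large part of their predicted targets, among them cell cycle and growth genes such as those of the RAS family, HMGA2 and the RNA-binding protein LIN28. LIN28 in turn blocks the processing of let-7 precursors. The family is known for high levels in differentiated tissue, adult liver included, and several of its genes lie next to each other and are transcribed as one precursor.

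The mature sequences are shown because the members differ by so few bases that the results turn on telling near-identical molecules apart. All 7 members matched a RefSeq entry (GRCr8 build), as did miR-98, which carries the same seed. The capitals mark the seed.
rno-let-7a: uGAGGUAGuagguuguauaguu
rno-let-7b: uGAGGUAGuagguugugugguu
rno-let-7c: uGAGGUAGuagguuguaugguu
rno-let-7d: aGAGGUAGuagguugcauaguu
rno-let-7e: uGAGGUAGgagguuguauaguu
rno-let-7f: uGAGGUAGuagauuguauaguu
rno-let-7i: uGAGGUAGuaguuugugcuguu
rno-miR-98: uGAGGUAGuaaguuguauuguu
All were 22 bases long with 1 seed in common. Over the 21 pairs of members the number of differing bases ran from 1 to 6 with a median of 3, and 4 pairs differed at 1 base only. Counted from the 5′ end, let-7a and let-7f differed by G12A, let-7a and let-7e by U9G, let-7a and let-7c by A19G, and let-7b and let-7c by G17A. A probe of the assay can in part count a sequence that differs at 1 base, and how much it did so here was not tested.

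In GRCr8, let-7a, let-7f and let-7d have genes side by side on the plus strand of chromosome 17, with mature sequences at chr17:16320145-16320166, chr17:16320508-16320529 and chr17:16322273-16322294. The let-7c and let-7b sequences lie at chr7:118683636-118683657 and chr7:118684044-118684065. The let-7e sequence at chr1:67350243-67350264 lies between those of miR-99b, at chr1:67350070-67350091, and miR-125a-5p, at chr1:67350689-67350712. The let-7i sequence stands alone on the minus strand at chr7:60527935-60527956. Further copies of let-7a on chromosome 8, of let-7c on chromosome 11 and of let-7f on chromosome X, the last beside miR-98, give the same mature sequences as the clustered copies, so a measured level sums over the copies.

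The deposited values are log2 CPM, counts scaled to library size on a log2 scale, and a difference of 1 is a 2-fold change. Total counts per animal were 58168 to 267582, and the 7 members together took 5.72% to 9.55% of an animal's counts with a median of 7.21%. Counts of a member in an animal ran from 1499 to 5651 for let-7d, from 528 to 3510 for let-7f, from 129 to 517 for let-7i and from 63 to 259 for let-7e. Hepatocyte miRNAs were present throughout, with miR-122 at 42.1% to 68.8% of all counts. In 4 of the 6 untreated or saline CHO-fed animals at 0 h this share was 42.1% to 48.8%, against at least 51.3% in the other 44 animals. In AM21-treated animals miR-21, the target of the oligo, was at 6.59 to 7.76 log2 CPM, below every control. The libraries labelled EtOH, saline, 0 h were at 11.12, 9.65 and 14.10, and the first and the second of these lay below all other controls. Calls of members that were lost or gained without these 6 animals are given with and without them. Labels number the animals in sets. Sets 1 to 3 each held 1 animal of every group at 0 and 24 h, and set 4 held all animals at 6 and 72 h, so a difference between 6 or 72 h and 0 h cannot be told apart from a difference between sets.

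**Figure D1:**
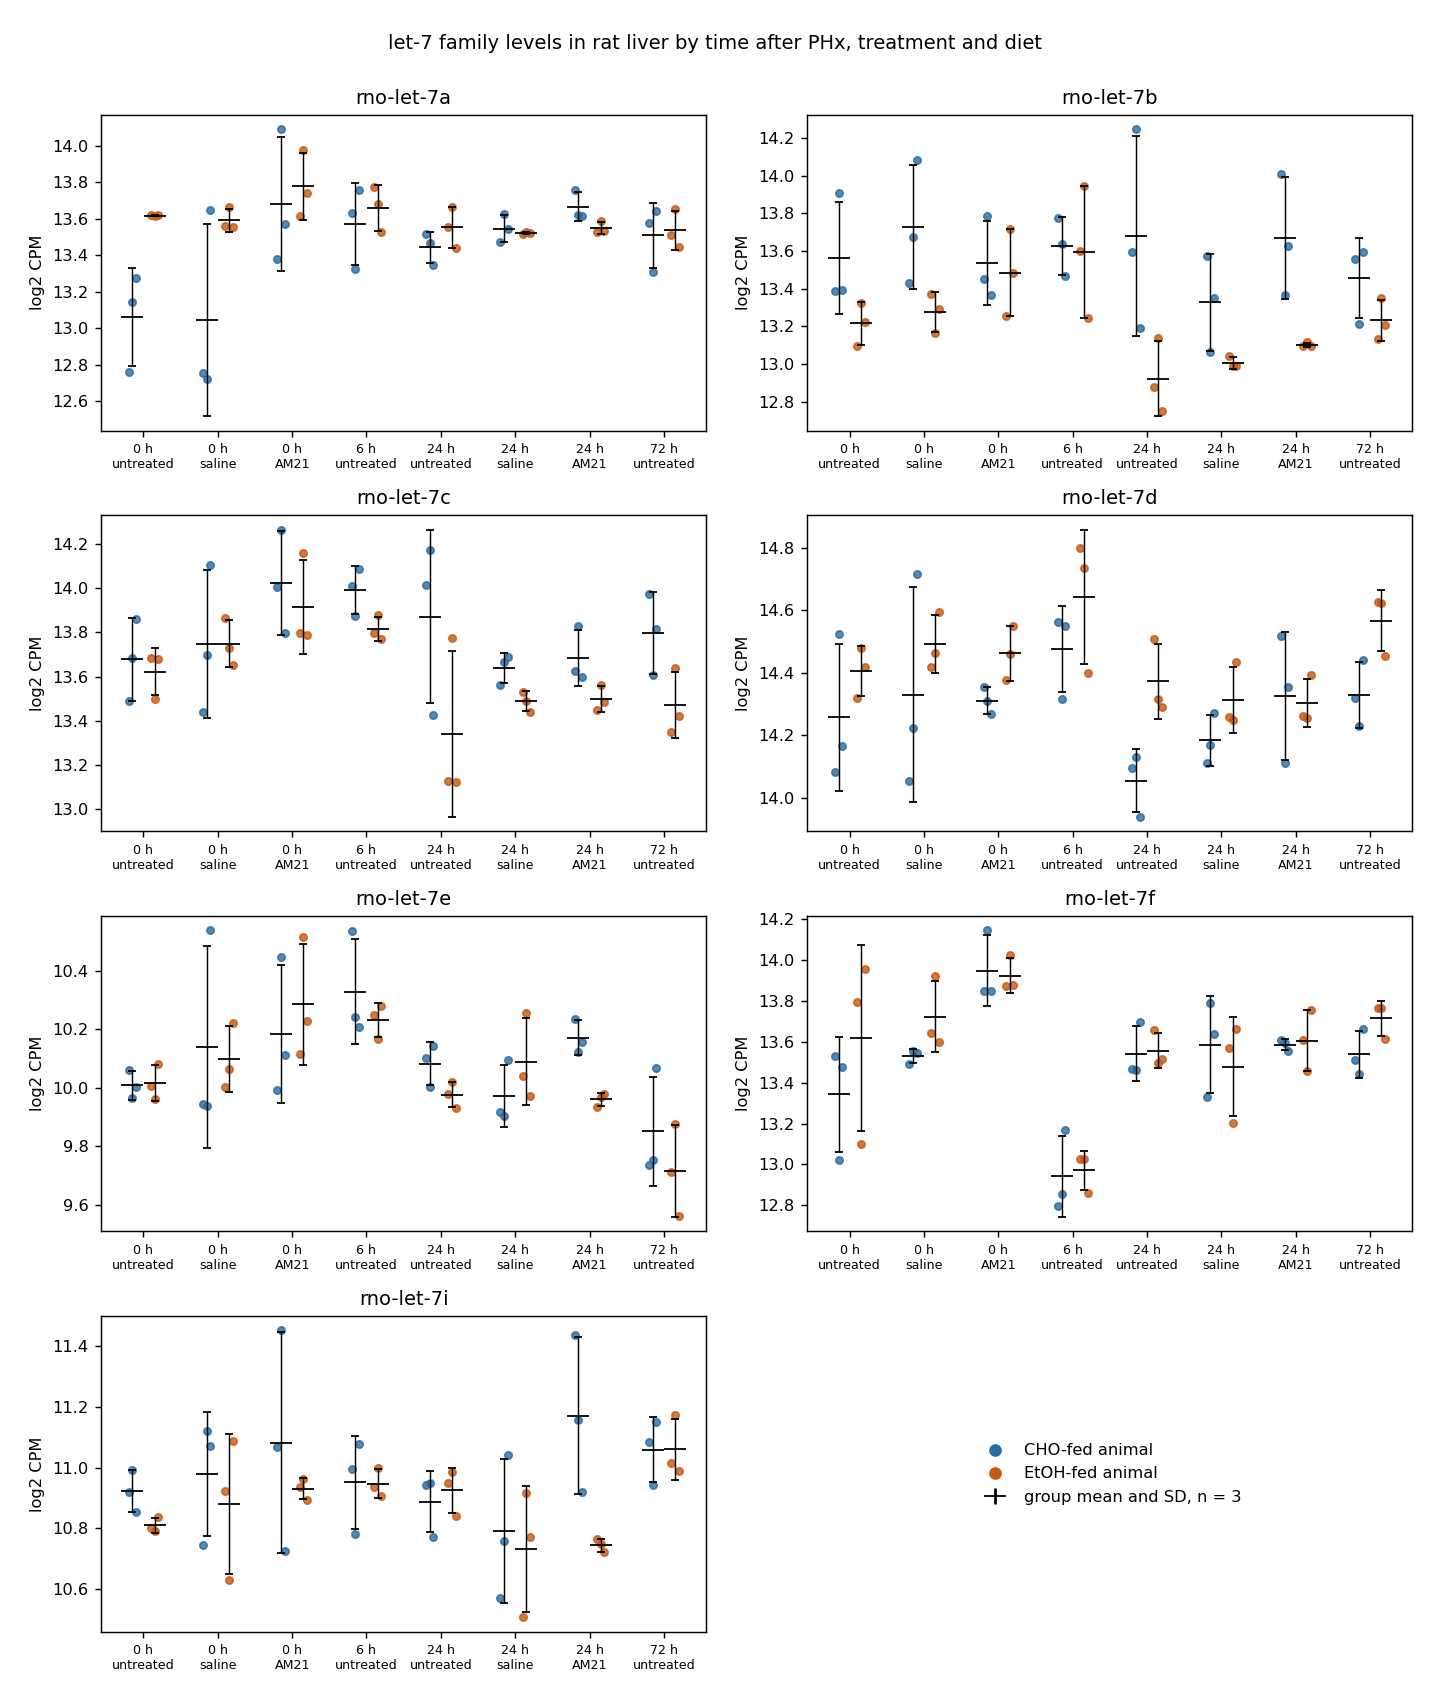
Level (log2 CPM) of each let-7 member in every animal, by hours after PHx and treatment (x axis) and diet (blue CHO, orange EtOH), with group mean and SD (n = 3) in black. let-7f has its lowest group means at 6 h, 12.94 on CHO and 12.97 on EtOH, and let-7a is low in untreated and saline CHO-fed animals at 0 h, where 5 of 6 are at 12.73 to 13.28.

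The members differed in how far their group means spread. The mean of let-7f ran from 12.94 ± 0.20 (SD, n = 3) on CHO at 6 h to 13.95 ± 0.17 in CHO-fed AM21-treated animals at 0 h, a range of 1.01 on the log2 scale. The mean of let-7i, the steadiest member, ran only from 10.73 ± 0.21 in EtOH-fed saline animals at 24 h to 11.17 ± 0.26 in CHO-fed AM21-treated animals at 24 h, a range of 0.44. For let-7b the highest mean was 13.73 ± 0.33 in CHO-fed saline animals at 0 h and the lowest 12.92 ± 0.20 in untreated EtOH-fed animals at 24 h. Most steps in these orders were small. Of the 15 steps between neighbours in a member's order of 16 groups, 13 for let-7f, 14 each for let-7a, let-7b, let-7c and let-7d, and all 15 for let-7e and let-7i were smaller than the larger SD of the neighbouring pair.

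The time course asked how levels moved as the liver regrew. At 6 h after PHx, let-7f was at 13.17 log2 CPM or less in every animal of both diets and had a negative difference against 0 h in both, while the other 6 members had log2 differences of at least 0.03, although with total-count scaling a further 2 members on CHO and 1 on EtOH were below 0, and without the 2 untreated CHO-fed animals at 0 h with a low miR-122 share let-7b, let-7d and let-7i were below 0 on CHO (-0.28, -0.05 and -0.04). On CHO let-7f was at 13.53, 13.02 and 13.48 log2 CPM at 0 h and at 12.80, 12.86 and 13.17 at 6 h. On EtOH it was at 13.79, 13.10 and 13.95 at 0 h and at 13.03, 13.03 and 12.86 at 6 h. Groups overlapped on CHO through the second animal at 0 h and did not overlap on EtOH. By 72 h let-7f was at 13.51, 13.44 and 13.66 on CHO and at 13.76, 13.76 and 13.61 on EtOH, above every 6 h animal.

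By limma, let-7f fell from 0 to 6 h on EtOH by 0.65 on the log2 scale (SE 0.19, adjusted p = 0.036), a 1.56-fold lower level. In that comparison 16 of 143 miRNAs were called (11.2%), and let-7f was 1 of 7 members. On CHO the difference was -0.40 (SE 0.19, adjusted p = 0.17), 3 of 143 miRNAs were called (2.10%) and no member was, with 39 miRNAs and 3 members at an unadjusted p under 0.05. Without the 2 animals with a low miR-122 share, which left 1 CHO-fed animal at 0 h, at 13.02, the let-7f difference on CHO was -0.08 (adjusted p = 0.97). The EtOH call did not hold without any 1 of 5 of the 6 animals compared, with adjusted p up to 0.27, or in a fit on the 6 animals alone (adjusted p = 0.17). With the log10 total count as a covariate, let-7f was called lower at 6 h in both diets (-0.46 on CHO and -0.60 on EtOH).

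From 6 to 72 h, a comparison within set 4, let-7f rose in both diets. The difference was 0.60 (SE 0.19, adjusted p = 0.022) on CHO and 0.74 (SE 0.19, adjusted p = 0.0047) on EtOH, 1.51-fold and 1.67-fold. These comparisons had the largest backgrounds of calls, 44 of 143 miRNAs (30.8%) on CHO and 53 (37.1%) on EtOH, and 2 of 7 members were called in each. The median difference of the members was -0.15 and -0.12, against -0.01 and 0.05 over all miRNAs. The CHO call was lost without either of the 6 h animals at 12.80 and 12.86 (adjusted p = 0.092 and 0.088), without the 72 h animal at 13.66 (adjusted p = 0.094) and with total-count scaling (0.48, adjusted p = 0.092). The EtOH call was kept without each of the 6 animals in turn.

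The total count moved with let-7f, and so did other miRNAs. Totals were 87009 to 196972 counts at 6 h and 163533 to 267582 at 72 h in untreated animals. With the log10 total count as a covariate, the difference from 6 to 72 h was 0.23 (adjusted p = 0.43) on CHO and 0.43 (adjusted p = 0.053) on EtOH. The 1 animal at 6 h with a total in the range of the 72 h animals, an EtOH-fed animal with 196972 counts, was at 13.03. Over all 48 animals and after group means were removed, let-7f correlated with the log10 total count (r = 0.49, permutation p = 0.00044, adjusted p = 0.0031 over 7 members; rho = 0.38, adjusted p = 0.046; r = 0.33 without the 2 animals farthest from the median), while let-7b correlated the other way (r = -0.42, adjusted p = 0.011; rho = -0.36, adjusted p = 0.046; r = -0.36 without those 2). Values for the other 5 members lay between -0.18 and 0.08. Permutation made no allowance for the group means removed, so these p-values, and those below with total-count scaling, tend to be too small. With total-count scaling the let-7f relation was not past the threshold (r = 0.31, adjusted p = 0.10; rho = 0.18, adjusted p = 0.38; r = 0.10 without those 2), and that of let-7b was (r = -0.59, adjusted p = 7e-05). With the deposited scaling, within sets 1, 2, 3 and 4, each of 12 animals, r was 0.20, 0.39, 0.47 and 0.75 for let-7f and -0.42, -0.77, -0.25 and 0.06 for let-7b, so the let-7b relation was not seen in set 4. For let-7a it was 0.04, -0.45, 0.003 and 0.70, and for let-7d 0.20, -0.76, -0.38 and 0.71. So in set 4 these 2 members moved with the total count much as let-7f did, and their values over all 48 animals join sets of opposite sign. In set 4 let-7i was at 0.48, let-7c at 0.34 and let-7e at 0.16.

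Among cell type markers, miR-126, the single endothelial marker listed, moved in the same direction. It fell by 1.01 at 6 h (adjusted p = 0.036) and was 1.05 higher at 72 than at 6 h (adjusted p = 0.0075) on EtOH, and its differences of -0.78 and 0.62 on CHO were not called (adjusted p = 0.14 and 0.11). Its level was 13.68 to 14.39 at 6 h and 14.64 to 15.17 at 72 h. The hepatocyte miRNA miR-192 also fell by 0.82 at 6 h on EtOH and was 0.89 and 0.85 higher at 72 than at 6 h on CHO and EtOH, and miR-122 did not pass. Other markers rose at 6 h, the leukocyte miRNA miR-342-3p by 0.98 on CHO (adjusted p = 0.020) and the mesenchymal miRNA miR-145 by 0.64 on EtOH (adjusted p = 0.037). From 6 to 72 h, both red blood cell markers were lower on CHO and neither was called on EtOH. Of 4 leukocyte markers 1 was higher and 1 lower on CHO and 1 was higher and 2 lower on EtOH. Of 4 stellate cell and other mesenchymal markers, miR-145 alone was called, lower at 72 than at 6 h in both diets. The summed level of the leukocyte markers was 11.65 to 12.18 at 6 h and 11.61 to 11.95 at 72 h, and that of the mesenchymal markers was 14.48 to 14.92 and 13.65 to 14.40. No miRNA of the table was under 5 counts in any animal, so no marker could be at 0. The lowest marker count was 14, for a mesenchymal marker in an untreated CHO-fed animal at 0 h. The part of depth and of cell types in the let-7f difference was not tested.

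**Figure D2:**
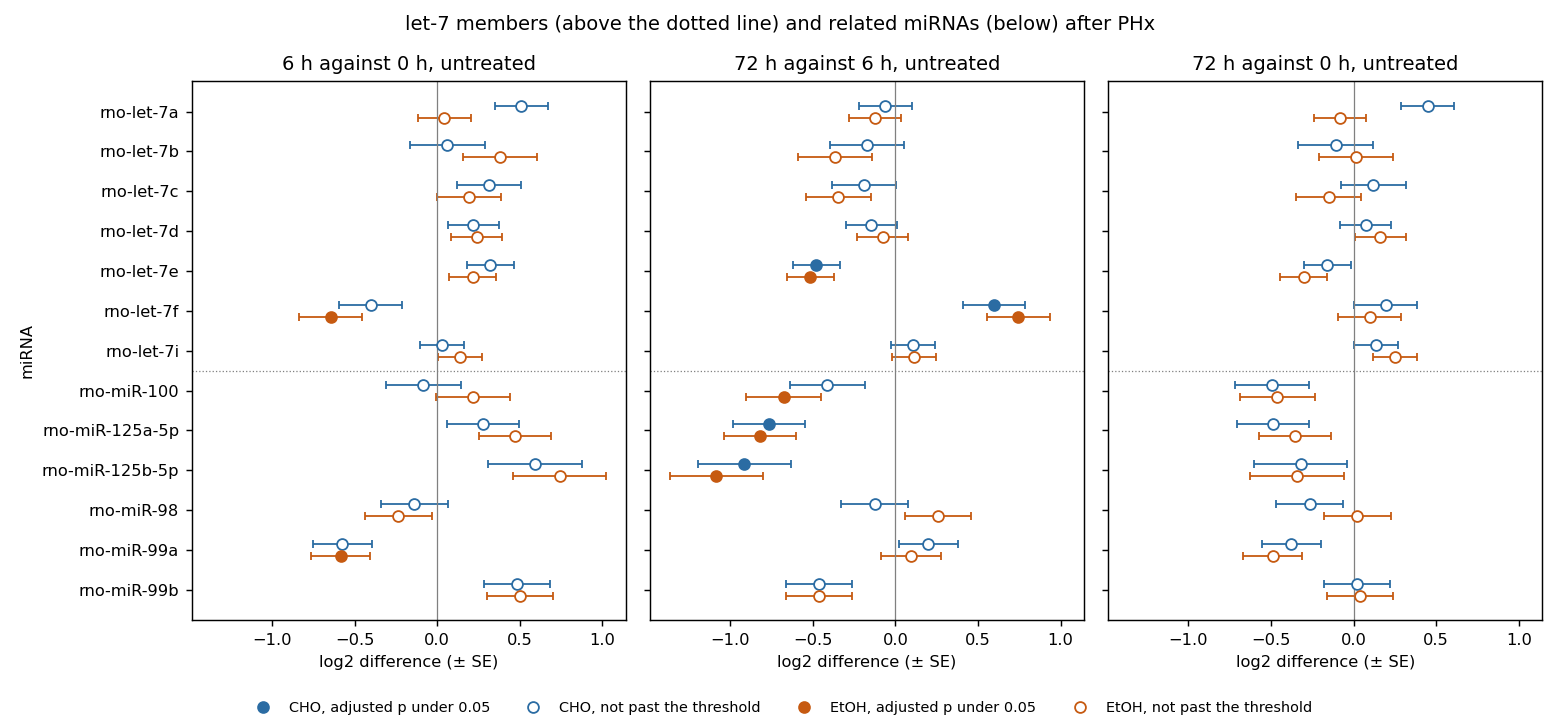
Log2 difference (± SE, limma) of the 7 let-7 members and 6 related miRNAs between time points in untreated animals, blue for CHO and orange for EtOH, filled where the adjusted p was under 0.05. In the middle panel let-7f is 0.60 and 0.74 higher and let-7e 0.48 and 0.52 lower at 72 than at 6 h.

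let-7e moved against let-7f from 6 to 72 h, and in the same direction as miR-125a-5p, its neighbour on chromosome 1. It was at 10.54, 10.24 and 10.21 log2 CPM on CHO at 6 h and at 9.73, 9.75 and 10.07 at 72 h. On EtOH it was at 10.25, 10.17 and 10.28 at 6 h and at 9.71, 9.88 and 9.56 at 72 h. The times did not overlap in either diet. The level fell by 0.48 (SE 0.14, adjusted p = 0.016) on CHO and by 0.52 (SE 0.14, adjusted p = 0.0072) on EtOH. The EtOH call was kept under all 13 alternatives run, and the CHO call was lost in a fit on the 6 animals alone (adjusted p = 0.060) and without the first 6 h animal or the first or second 72 h animal (adjusted p = 0.092, 0.062 and 0.056).

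The 6 related miRNAs were miR-98 and those that lie beside let-7 genes, miR-99a, miR-99b, miR-100, miR-125a-5p and miR-125b-5p. Of these, miR-125a-5p fell from 6 to 72 h by 0.76 on CHO and by 0.82 on EtOH (adjusted p = 0.013 and 0.0058), and miR-125b-5p, which shares its seed with miR-125a-5p, fell by 0.91 and 1.08 (adjusted p = 0.019 and 0.0052). miR-100 fell by 0.68 on EtOH (adjusted p = 0.020). miR-99b differed by -0.46 in each diet and did not pass. In all, 2 of 6 on CHO and 3 of 6 on EtOH were called, each lower. Over all 143 miRNAs, 44 (30.8%) and 53 (37.1%) were called, of which 23 and 22 were lower. Against 0 h, miR-99a was lower on EtOH at 6 h (-0.58, adjusted p = 0.037) and at 24 h in untreated animals (-0.72, adjusted p = 0.036). With saline animals it was lower at 24 h in both diets (-0.61 on CHO and -0.65 on EtOH, adjusted p = 0.00085 and 0.00067). Its differences in untreated CHO-fed animals, -0.57 at 6 h and -0.59 at 24 h, did not pass. miR-100 was lower at 24 h on CHO with saline animals (-0.54, adjusted p = 0.012). Within groups, deviations of let-7e over 48 animals had r = -0.12 with miR-99b and r = -0.25 with miR-125a-5p, given as a description.

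Between 0 and 72 h no member was called in either diet, although 26 of 143 miRNAs (18.2%) were called in each. The members' log2 differences lay between -0.16 and 0.45 on CHO and between -0.30 and 0.25 on EtOH, and 1 member in each had an unadjusted p under 0.05, let-7a on CHO and let-7e on EtOH. At 24 h against 0 h in untreated animals, limma called 2 of 143 miRNAs in each diet (1.40%) and no member, with 1 member at an unadjusted p under 0.05 on CHO and 0 on EtOH.

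let-7a was low in CHO-fed control animals at 0 h and close to 13.5 in nearly all others. Untreated CHO-fed animals at 0 h were at 12.76, 13.14 and 13.28 log2 CPM, and saline CHO-fed animals at 12.76, 12.73 and 13.65. Untreated EtOH-fed animals at 0 h were at 13.62, 13.61 and 13.62, and saline EtOH-fed animals at 13.56, 13.67 and 13.55. At 24 h the 6 untreated or saline CHO-fed animals ran from 13.35 through a median of 13.49 to 13.63. So 5 of the 6 CHO-fed controls at 0 h lay below all of these, and the sixth, at 13.65, lay inside their range.

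Over untreated and saline animals together, let-7a rose from 0 to 24 h on CHO by 0.44 on the log2 scale (SE 0.13, adjusted p = 0.016, 1.36-fold). It was 1 of 7 members called, against 36 of 143 miRNAs (25.2%). The call was lost without any 1 of the 3 lowest animals at 0 h (0.36 to 0.37, highest adjusted p = 0.054) and in a fit on the groups compared alone (adjusted p = 0.094). On EtOH its difference was -0.07. There all 7 members had a negative difference, from -0.28 to -0.02 and under each of the 4 scalings, but none was called, against 16 of 143 miRNAs (11.2%), with 0 members and 39 miRNAs at an unadjusted p under 0.05. The difference between the diets in this change, added after the values were seen, was -0.51 by limma (adjusted p = 0.42), and no miRNA was called (0%, 14 of 143 at an unadjusted p under 0.05). The F test for a diet by time interaction in untreated animals also called no miRNA (0%), with 8 of 143 and 0 members at an unadjusted p under 0.05.

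At 0 h, over all treatments, let-7a was 0.40 higher on EtOH than on CHO (SE 0.11, adjusted p = 0.0097, 1.32-fold), as 1 of 7 members against 21 of 143 miRNAs (14.7%). Within sets 1, 2 and 3 the difference was 0.63, 0.43 and 0.14. In untreated animals alone it was 0.56 (SE 0.16, adjusted p = 0.072), with 3 of 143 miRNAs called (2.10%), no member, and 1 member at an unadjusted p under 0.05. Animals of the same set deviated together at 0 h, and with the set as a block the adjusted p of let-7a was 0.048.

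Both let-7a calls were lost without the 4 CHO-fed control animals with a low miR-122 share, in which let-7a was 12.76, 12.76, 12.73 and 13.28. Without them the difference from 0 to 24 h was 0.10 (adjusted p = 0.66) and that between diets at 0 h over all treatments was 0.17 (adjusted p = 0.27). In untreated animals alone the difference between diets changed less, from 0.56 to 0.47 (adjusted p = 0.0998), with 1 CHO-fed animal left. Other members were called in their place, let-7d lower at 24 h (-0.50) and let-7b lower on EtOH at 0 h (-0.51). Only 1 untreated and 1 saline CHO-fed control were then left at 0 h. They were at 14.53 and 14.72 for let-7d and at 13.91 and 14.08 for let-7b. In both members these were the highest CHO-fed controls at 0 h. With total-count scaling, which moved the median of all miRNAs to -0.27 and -0.28 in these comparisons, the let-7a differences were 0.15 and 0.17 and were not called. That scaling also turned the split of calls, from 18 of 36 miRNAs higher to 3 of 44 over time, and from 14 of 21 higher to 1 of 51 between diets. Under it let-7a was the only member above 0 in each comparison, and 4 other members were called lower in each. The members' medians were then -0.34 and -0.21. Within sets the 0 to 24 h difference of let-7a with the deposited scaling was 0.73, 0.61 and -0.02. Without the 2 EtOH-fed saline animals with a low miR-21 the difference between diets was 0.39 (adjusted p = 0.057). miR-122 itself rose by 0.55 from 0 to 24 h in CHO-fed controls (adjusted p = 0.0099) and was 0.43 higher on EtOH at 0 h (adjusted p = 0.013). Of the other markers, miR-150 and miR-145 were lower at 24 h in CHO-fed controls and miR-342-3p was higher on EtOH at 0 h. The part of these in the let-7a result was not tested.

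The diets also differed in let-7b at 24 h. In untreated EtOH-fed animals it was at 12.88, 13.14 and 12.75 log2 CPM, in saline animals at 13.04, 12.99 and 12.99 and in AM21-treated animals at 13.10, 13.12 and 13.10. The corresponding CHO-fed animals were at 13.60, 14.25 and 13.19, at 13.57, 13.06 and 13.35, and at 14.01, 13.36 and 13.63. So 8 of the 9 CHO-fed animals lay above all 9 EtOH-fed animals.

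let-7b was 0.55 lower on EtOH than on CHO over all treatments (SE 0.13, adjusted p = 0.019, 1.46-fold), and it was 1 of only 2 miRNAs called among 143 (1.40%). Within sets 1, 2 and 3 the difference was -0.72, -0.48 and -0.44. The call was lost without any of 3 animals, the CHO-fed animals at 14.25 and 13.57 (adjusted p = 0.075 and 0.066) or the EtOH-fed animal at 12.75 (adjusted p = 0.066). In untreated animals alone the difference was -0.76 (SE 0.23, adjusted p = 0.066), 3 of 143 miRNAs were called (2.10%) and no member, with let-7b and its chromosome 7 neighbour let-7c (-0.53, adjusted p = 0.15) at an unadjusted p under 0.05. No cell type marker was called between diets at 24 h over all treatments, and in untreated animals 1 was, the red blood cell miRNA miR-451, 1.31 higher on EtOH (adjusted p = 0.019). Its part in the let-7b difference was not tested.

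At 6 and 72 h the diets were compared within set 4, and limma called no miRNA at either time (0%), with 13 and 14 of 143 and no member at an unadjusted p under 0.05. The members differed between the diets by -0.17 to 0.17 at 6 h, and by -0.33 to 0.24 at 72 h.

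let-7c, let-7d and let-7i were called in none of the comparisons made on all animals. let-7c, counted at 837 to 3331 per animal, was 0.29 lower on EtOH at 24 h over all treatments (adjusted p = 0.18). let-7d, the most abundant member, had its lowest mean of 14.05 ± 0.10 (SD, n = 3) in untreated CHO-fed animals at 24 h and its highest of 14.64 ± 0.21 on EtOH at 6 h. let-7i differed by at most 0.25 in size in any comparison of time points within a diet.

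AM21 was tested to see whether loss of miR-21 moved the family. Over 0 and 24 h together, all 7 members had a positive difference from untreated and saline animals, from 0.05 to 0.25 (6 of 7 with total-count scaling or without the 4 animals with a low miR-122 share), but no member was called, against 8 of 143 miRNAs (5.59%), with let-7a (0.25, adjusted p = 0.082) and let-7f (0.22, adjusted p = 0.12) at an unadjusted p under 0.05. The members share each animal's scaling, so that 7 positive signs are not 7 separate measurements.

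At 0 h, AM21-treated animals had higher let-7a and let-7f, 2 of 7 members called against 6 of 143 miRNAs (4.20%). let-7a was at 13.38, 14.09 and 13.57 log2 CPM on CHO and at 13.62, 13.98 and 13.74 in EtOH-fed AM21-treated animals, and was 0.40 above controls (SE 0.12, adjusted p = 0.045). let-7f was at 13.85, 14.15 and 13.85 on CHO and at 13.87, 14.02 and 13.87 in EtOH-fed AM21-treated animals, and was 0.38 above controls (SE 0.11, adjusted p = 0.045). Control animals at 0 h ran from 13.02 through a median of 13.55 to 13.95 for let-7f and overlapped with the treated animals. Within sets 1, 2 and 3 the difference was 0.32, 0.75 and 0.13 for let-7a and 0.25, 0.68 and 0.22 for let-7f.

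Both calls lay close to the threshold. Leaving out any 1 of 11 of the 18 animals ended the let-7a call and any 1 of 13 the let-7f call, with adjusted p up to 0.27 and 0.20. Without the 4 CHO-fed controls with a low miR-122 share, let-7a differed by 0.23 (adjusted p = 0.21) and let-7f by 0.46 (adjusted p = 0.046). Without the 2 EtOH-fed saline animals with a low miR-21 the adjusted p was 0.10 and 0.088. Against saline animals only, neither was called, and neither was with total-count scaling (adjusted p = 0.10 and 0.42). Against untreated animals only, let-7a was not called (0.39, adjusted p = 0.12) and let-7f was (0.46, adjusted p = 0.047). With the log10 total count as a covariate, let-7a was called (0.44, adjusted p = 0.025) and let-7f was not (0.30, adjusted p = 0.15). Of the markers, miR-199a-5p and miR-199a-3p, 2 of 4 mesenchymal ones, were lower in AM21-treated animals at 0 h by 0.57 and 0.42, and the other lists had no call. Their part in the let-7 result was not tested.

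At 24 h no member was called for AM21, against 4 of 143 miRNAs (2.80%), with differences from 0.01 to 0.15 and no member at an unadjusted p under 0.05. The difference between the AM21 effects at 24 and 0 h called no miRNA (0%; 4 of 143 at an unadjusted p under 0.05, among them let-7f at -0.33). The difference between its effects in the diets at 0 h, added after the values were seen, also called none (0%; 6 of 143 and 0 members at an unadjusted p under 0.05). Saline against untreated animals called 2 of 143 miRNAs (1.40%), no member, and had members' differences from -0.04 to 0.06 with no unadjusted p under 0.05. No relation between the level of a member and that of miR-21 passed the threshold by Pearson's r or Spearman's rho in 14 tested, 7 in 24 untreated or saline animals at 0 and 24 h and 7 in 12 AM21-treated animals (lowest adjusted permutation p = 0.57 for r and 0.19 for rho). Values of r ran from -0.31 to 0.07 in controls and from 0.23 to 0.54 in AM21-treated animals, where miR-21 had at most 32 counts. In controls, r for let-7a went from 0.07 to 0.52 and for let-7b from -0.18 to -0.50 without the 2 animals farthest from the median of miR-21, and the sets differed. In set 3, r in controls was from -0.87 for let-7i to -0.43 for let-7a in 6 of the 7 members and 0.33 for let-7f, while in sets 1 and 2 it lay between -0.57 and 0.56. After group means were removed, the highest r in controls was 0.45 for let-7i (permutation p = 0.026, adjusted p = 0.37; 0.06 without the 2 farthest animals).

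The measured levels of members with adjacent genes did not keep a fixed ratio. Levels of let-7a, let-7f and let-7c also sum over copies on other chromosomes, so these are not ratios of the products of 1 cluster alone. A log2 ratio of 2 members in the same animal does not depend on the scaling between animals. It was tested after the values were seen, for the 4 pairs with genes within 10000 bases of each other in 6 comparisons, by exact two-sided permutation within diet or treatment with adjustment over all 24 tests, and 5 passed. On chromosome 17, let-7a over let-7f was 0.47 to 0.83 in the 6 animals at 6 h and -0.25 to 0.07 in the 6 at 72 h. The mean difference was -0.76 (exact p = 0.005, the smallest that 400 arrangements can give, adjusted p = 0.024). Against 0 h, where it was -0.77 to 0.51, the ratio at 6 h was 0.80 higher (exact p = 0.005, adjusted p = 0.024), and 5 of 6 animals at 6 h were above all at 0 h. Without the 2 animals at 0 h with a low miR-122 share that difference was 0.60 (adjusted p = 0.080).

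let-7d over let-7f was 1.38 to 1.77 at 6 h and 0.78 to 0.86 at 72 h, with no overlap (difference -0.78, exact p = 0.005, adjusted p = 0.024). let-7a over let-7d, by contrast, differed between 6 and 72 h by 0.02 (exact p = 0.72). That ratio was instead -1.50 to -0.89 in CHO-fed controls at 0 h and -0.73 to -0.54 at 24 h, with no overlap (difference 0.62, exact p = 0.005, adjusted p = 0.024). The difference was 0.60 without the 4 animals with a low miR-122 share, where 2 animals at 0 h were left and the test could not go below 0.0625. In AM21-treated animals at 0 h it was 0.38 higher than in controls (exact p = 0.0037, adjusted p = 0.024), 0.38 without those 4 (adjusted p = 0.14) and 0.39 without the 2 saline animals with a low miR-21 (adjusted p = 0.024). On chromosome 7, let-7b over let-7c passed in none of the 6 comparisons, with the lowest adjusted p at 0.095. Over the 24 tests none passed once the 4 animals were left out. The ratios at 72 against 6 h hold none of these 4, so that their differences and exact p were as given and their calls were lost only through the adjustment over the other tests. Between 4 and 8 tests passed when each animal was left out in turn.

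**Figure D3:**
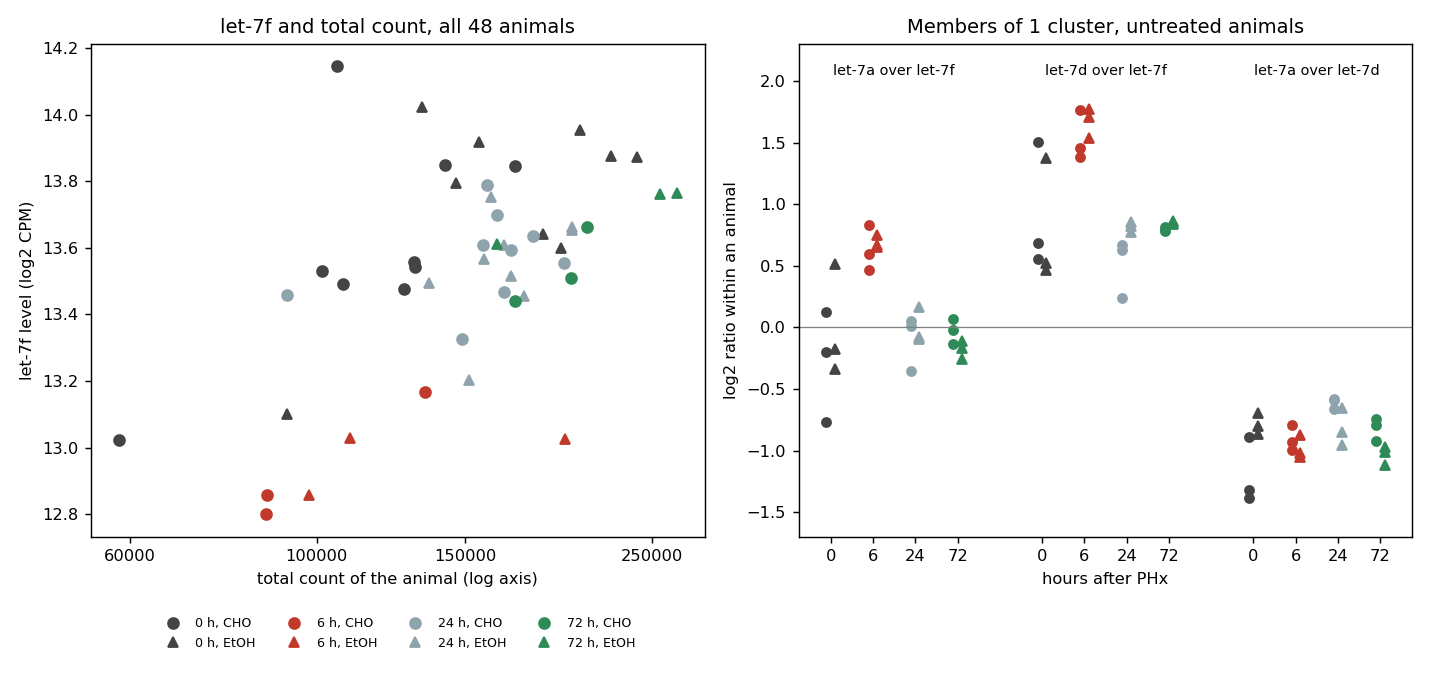
Left, let-7f level (log2 CPM) against the total count of each of 48 animals (log axis), coloured by hours after PHx, circles CHO and triangles EtOH. Right, log2 ratios within each untreated animal by time, for members with adjacent genes on chromosome 17. Levels of let-7a and let-7f also include copies on other chromosomes. Here let-7a over let-7f is 0.47 to 0.83 at 6 h and -0.25 to 0.07 at 72 h.

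Within groups, most members tended to deviate together. With the deposited scaling, deviations from group means over 48 animals were positively correlated in 19 of 21 pairs, with a median r of 0.42. An adjusted permutation p under 0.05 was found in 14 pairs for r and 14 for rho. The permutations shuffled all 48 deviations and made no allowance for the 16 group means removed, so these p-values tend to be too small. The highest r were 0.68 for let-7a with let-7e (0.50 without the 2 animals farthest from the median of let-7a), 0.67 for let-7a with let-7c (0.60) and 0.62 for let-7b with let-7d (0.64). let-7f had r from -0.22 to 0.21 with the other members, none past the threshold, and its rho with let-7a was 0.33 (adjusted p = 0.041). All pairs share the scaling of the animal, and with total-count scaling the median r was 0.31 and 9 pairs passed. There let-7f was not apart from the others, since it passed with let-7e (r = 0.40, adjusted p = 0.017) and let-7i (r = 0.38, adjusted p = 0.020), while let-7b and let-7d passed in 1 pair each. With the deposited scaling the median r over pairs was 0.41, 0.28, 0.51 and 0.45 within sets 1 to 4.

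**Figure D4:**
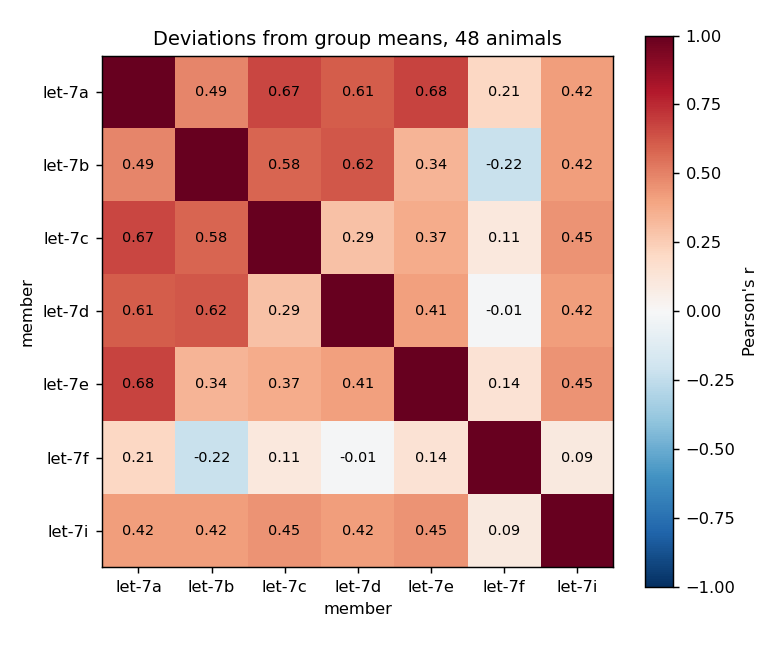
Pearson's r between deviations of let-7 members from their group means over 48 animals with the deposited scaling, from -1 in blue to 1 in red. let-7f has r from -0.22 to 0.21 with the other 6 members, while let-7a reaches 0.68 with let-7e.

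Outside the family, the miRNAs most like each member by the same r are given as a description over 48 animals that share the deposited scaling. They were miR-122 (0.71), miR-675 (0.70) and miR-124 (0.67) for let-7a, and miR-1224 (0.68), miR-122 (0.62) and miR-351 (0.58) for let-7b. For let-7c they were miR-98 (0.49), miR-34a (0.48) and miR-3594-5p (0.41), and for let-7d miR-122 (0.78), miR-675 (0.73) and miR-1224 (0.73). let-7e was most like miR-335 (0.59), miR-675 (0.56) and miR-25 (0.53). let-7f was most like miR-126 (0.68), the probe shared by miR-20a and miR-20b-5p (0.62) and miR-19a (0.61), and let-7i most like miR-144 (0.56), miR-25 (0.50) and miR-32 (0.48). miR-98, with the seed of the family, fell from 0 to 24 h in CHO-fed controls by 0.34 (adjusted p = 0.042), where let-7a rose, and was 0.33 lower on EtOH at 0 h over all treatments (adjusted p = 0.021).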

How the data were processed

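miRNAs of 48 rat livers were counted with the NanoString nCounter assay, which tags each miRNA with a coloured probe and does not amplify it. The authors deposited log2 CPM of 143 miRNAs, made from counts by TMM scaling (edgeR) and the voom transformation of limma. The filter that left these miRNAs is not given in the sources used here. Whole counts were recovered from the values with the voom pseudocount of 0.5, at most 5.54e-05 from a whole number, and gave the depth.

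All 143 miRNAs were fitted with limma 3.58.1 (R 4.3.3) on the deposited log2 CPM, with 1 mean per group over the 24 untreated animals in 8 groups, or the 36 animals at 0 and 24 h in 12 groups. P-values were adjusted by Benjamini-Hochberg within a comparison and called under 0.05. Correlations used 100000 permutations, and ratios an exact permutation test (Python 3.11.15). Deviations from group means were shuffled freely over the animals, so p-values of their correlations tend to be too small. The limma fit and the permutation tests were checked on simulated data. The simulated counts had the same dispersion for all miRNAs. The correlation test was checked on independent values and not on deviations from group means. The members and lists were chosen with earlier results of these data known. The members, miR-21, miR-98 and the miRNAs beside let-7 genes were named, with the 3 most correlated miRNAs of each member.

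Cell type lists were hepatocyte (miR-122, miR-192), red blood cell (miR-451, miR-144), leukocyte (miR-142-3p, miR-223, miR-150, miR-342-3p), mesenchymal (miR-199a-5p, miR-199a-3p, miR-143, miR-145) and endothelial (miR-126). Other settings tried were another scaling (RLE, the 100 highest miRNAs, or the total count), a minimum of 50 counts in 3 or more animals, which kept 138 miRNAs, observation weights from voom, the numbered set as a block, a fit on the compared groups alone, the log10 total count as a covariate, untreated or saline controls alone, and leaving out animals. The main fits did not pair animals, and the block was run wherever all animals compared came from sets 1 to 3. As a check, the set number was taken to pair animals where deviations of all 3 same-numbered pairs correlated above 0.1 over the 143 miRNAs. This held for CHO at 24 and 0 h untreated (0.12, 0.30 and 0.28), EtOH at 24 and 0 h with saline animals (0.16, 0.19 and 0.29), the diets at 0 h untreated (0.52, 0.79 and 0.65) and the diets at 24 h over all treatments (0.42, 0.31 and 0.15). No replicate pair of a group agreed within counting noise (chi-square per degree of freedom 4.80 to 83.0). The limma p-values rest on a spread between animals that is pooled over all groups of a fit and moderated over all miRNAs. They do not measure the spread in the compared groups alone. For let-7a the group SDs ran from 0.003 to 0.53. Sequences are RefSeq's (GRCr8).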

Additional observations from a re-analysis of the deposited data

How the results depend on the processing

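Of 7 members, the number called moved as follows, and the cause was not tested. With the log10 total count as a covariate it was 2 for CHO 6 against 0 h, and 1 each for 72 against 6 h on CHO and on EtOH, for AM21 over both times and for AM21 at 0 h. With scaling to total count it was 1 each for CHO 24 against 0 h and 72 against 0 h, for CHO 72 against 6 h and for the diets at 24 h untreated, 4 each for CHO 24 against 0 h with saline animals and for the diets at 0 h over all treatments, and 0 for AM21 at 0 h. In the 2 comparisons with 4 called, all 4 were lower. Over all miRNAs, 44 and 51 were called in these 2, of which only 3 and 1 were higher. The medians of all miRNAs were -0.27 and -0.28, so the lower calls were not particular to the members. There let-7a alone was above 0 and was not called, and the members' medians were -0.34 and -0.21. That scaling left 9 correlated pairs of members, 2 of them with let-7f, and 1 correlation with the total count, that of let-7b, and turned let-7e between the diets at 0 h from 0.02 to -0.21 (adjusted p = 0.039). With RLE factors it was 1 for the diets at 0 h untreated and for AM21 over both times, and with the 100 highest miRNAs 2 for the latter. The 50-count filter gave 1 for CHO 72 against 0 h, and voom weights gave 1 there and for the diets at 0 and 24 h untreated. A fit on the compared groups alone gave 1 for CHO 72 against 6 h and 0 for EtOH 6 against 0 h, CHO 24 against 0 h with saline animals, the diets at 0 h over all treatments and AM21 at 0 h. AM21 at 0 h had 1 member called against untreated and 0 against saline animals, 1 without the 4 animals with a low miR-122 share and 0 without the 2 with a low miR-21. Without those 2, 0 were called between the diets at 0 h over all treatments, and without those 4, 0 ratio tests passed, those at 72 against 6 h, which hold none of the 4, through the adjustment alone. These settings without named animals, the ratios and the relation to total count were chosen after seeing the data.

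With the set as a replicate block, 1 member was called between the diets at 0 h untreated (let-7a), and 1 at 24 h untreated, a comparison in which the check did not show the sets to pair the animals. The block moved no other count of members called by over 1.5 times. No paired fit was made at 6 and 72 h, whose animals share no set with the other times.

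Leaving out each animal in turn gave 0 to 2 members called for CHO 6 against 0 h and 72 against 6 h, for the diets at 24 h untreated and for AM21 at 0 h. It gave 0 to 1 for CHO 72 against 0 h and 24 against 0 h with saline animals, EtOH 6 against 0 h, the diets at 0 h untreated and at 24 h over all treatments, AM21 over both times and the difference between diets in the change to 24 h. The ratio tests passing ranged from 4 to 8.

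Counts of calls over all 143 miRNAs also moved with the setting. For CHO 24 against 0 h untreated, 2 were called, against 23 with total-count scaling, 19 with the block and 0 on the compared groups alone. For CHO 6 against 0 h the 3 became 20 with the covariate, for CHO 72 against 6 h the 44 became 8 with it, and for EtOH 6 against 0 h the 16 became 1 on the compared groups alone. Total-count scaling moved the median of all miRNAs to between -0.31 and 0.25. The number of animals, at 3 a group, and 63 counts at the least for let-7e limit the precision.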
